A study of Mus musculus with 4 samples.

Results

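The genes of glycolysis and of the cellular response to low oxygen were examined in LPS-stimulated splenic B cells with or without Cre directed at Nfkbiz, the gene of the nuclear IκB protein IκB-ζ. The list held 39 symbols chosen by function, and 38 of them were present under that symbol among the 30041 genes scored in each library. Pkm and Pkm2 are names of the same gene, which the libraries list as Pkm2. RNA-seq was made from 4 samples, 2 control and 2 cKO. Control B cells were Nfkbiz fl/Δ, and cKO B cells were Nfkbiz fl/Δ Mb1 cre/+, in which Cre is driven by the promoter of Cd79a, a gene switched on early in B cell development. Both groups therefore carried 1 deleted and 1 floxed Nfkbiz allele, and the study's methods name Mb1 cre for the cKO mice only, so that Cre and the loss of the floxed allele cannot be told apart here. All mice were C57BL/6. Their age and sex, and whether animals were pooled, are not given in the sources used here. B cells were purified from spleen by depletion of cells bearing CD43, CD4 or Ter-119 and were stimulated with lipopolysaccharide (LPS) for 72 h, at a dose of 20 that the labels give in mg/ml and the study's methods in μg/ml. Nothing says that the 2 samples of a group came from separate mice or cultures, so a p-value here measures the spread between samples, which may be technical.

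Glycolysis splits glucose into pyruvate in the cytosol, with hexokinase, phosphofructokinase and pyruvate kinase as its irreversible steps, and lactate dehydrogenase turns the pyruvate into lactate, which leaves the cell through monocarboxylate transporters. Activated lymphocytes take up more glucose and release lactate even when oxygen is plentiful. In the hypoxia response, prolyl hydroxylases mark the α subunits of the hypoxia-inducible factors (HIF) for destruction by the VHL ubiquitin ligase as long as oxygen is present. When oxygen falls, HIF accumulates and binds short DNA elements with the core ACGTG or GCGTG near its targets, among which are many glycolytic genes, so that the enzyme genes and the other HIF targets overlap in their known control.

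The expression value is the score that the authors deposited for each gene. Its unit is not stated. Low scores multiplied by exon length fell near whole multiples of a step in 75.4 to 81.4% of cases (within a tolerance of 0.2), against 45.7 to 49.0% with lengths shuffled among genes, as a value scaled by exon length and library size does. Read in this way the libraries would hold 17600000 to 20000000 reads. The scores of a library summed to 604.2 to 637.6. The Nfkbiz score was 0.0241 and 0.0226 in control 1 and 2 and 0.0127 and 0.0116 in cKO 1 and 2 (log2 fold change -0.94, SE 0.096, limma adjusted p = 0.0282), lower in each cKO library than in each control library. Of 10 B cell markers all were above the filter in these cells, with summed scores of 5.499 and 5.933 in control and 5.111 and 5.345 in cKO B cells. Summed scores were 0.2489 and 0.2089 against 0.2458 and 0.2609 for 15 myeloid markers, 0.0622 and 0.0728 against 0.105 and 0.103 for 16 T and NK cell markers, and 0.01497 and 0.00344 against 0.00575 and 0.00464 for 12 erythroid and platelet markers, and S100a9, Gzma and Slc4a1 were among the markers listed at 0 in all 4 libraries. Most of the T and NK cell sum came from Lck (0.0318 and 0.0437 in control, 0.0690 and 0.0636 in cKO) and Cd2 (0.0259 and 0.0245 in control, 0.0257 and 0.0289 in cKO). The other T and NK cell markers stayed under 0.005. Among them Cd5, Thy1, Nkg7, Cd3e, Cd3d, Cd3g and Klrk1 had both cKO scores above both control scores, and Cd28 had both below. Cd3e, Cd3d, Cd3g and Klrk1 did not exceed 0.0006 in any library. Cd4, Cd8a, Cd8b1, Klrb1c and Ncr1 were not separated between the groups. In such bulk samples, fewer cells of a type and less RNA per cell cannot be told apart.

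Promoter sequences are shown for 4 members that fell in cKO B cells and hold the hypoxia-response core near their start, taken in the order of their adjusted p. Each is the 250 bases before the start of the gene, read 5′ to 3′ on the gene's strand from RefSeq (GRCm38.p6). Capitals mark ACGTG and GCGTG on either strand. Where the first core is read on both strands at once, as in both runs of 6 capitals before Ldha, it forms the E-box that MYC and other factors bind. The stretch of Aldoc lies at chr11:78322823-78323072 (plus strand), Ldha at chr7:46845554-46845803 (plus strand), Pfkl at chr10:78009808-78010057 (minus strand) and Ankrd37 at chr8:45999851-46000100 (minus strand).
Aldoc: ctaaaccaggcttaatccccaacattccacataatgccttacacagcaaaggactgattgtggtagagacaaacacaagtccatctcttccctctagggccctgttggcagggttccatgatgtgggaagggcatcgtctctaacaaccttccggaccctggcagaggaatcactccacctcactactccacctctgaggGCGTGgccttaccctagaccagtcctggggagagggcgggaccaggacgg
Ldha: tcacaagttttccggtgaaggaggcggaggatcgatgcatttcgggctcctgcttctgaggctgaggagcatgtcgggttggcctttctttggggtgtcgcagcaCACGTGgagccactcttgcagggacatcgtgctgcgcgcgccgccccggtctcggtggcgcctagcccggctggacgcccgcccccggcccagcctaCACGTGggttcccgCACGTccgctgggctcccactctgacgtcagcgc
Pfkl: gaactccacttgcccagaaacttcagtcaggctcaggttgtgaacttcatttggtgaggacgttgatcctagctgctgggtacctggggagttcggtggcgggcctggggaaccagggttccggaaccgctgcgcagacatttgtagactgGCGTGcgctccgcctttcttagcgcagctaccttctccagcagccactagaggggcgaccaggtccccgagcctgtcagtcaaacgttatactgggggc
Ankrd37: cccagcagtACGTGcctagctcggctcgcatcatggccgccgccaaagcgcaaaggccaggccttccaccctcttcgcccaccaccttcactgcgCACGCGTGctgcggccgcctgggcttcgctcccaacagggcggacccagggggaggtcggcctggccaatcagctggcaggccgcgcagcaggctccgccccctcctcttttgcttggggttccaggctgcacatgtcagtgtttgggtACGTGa

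The stretch before Ldha held ACGTG 5 times when both strands were counted, and the stretch before Ankrd37 held each core 2 times. A single GCGTG stood before Aldoc and before Pfkl. A wider window of 250 bases before to 50 after the start was at hand for 35 members. Slc2a3 and the HIF targets Bnip3l and Ndrg1 were not among them. Of these 35 members 27 (77.1%) held a core of either kind. The share was 65.7% for the 7278 tested genes and 43.8% for all 27025 genes with a window. The share was 64.7% for 17 glycolytic enzymes (11 genes) and 87.5% for 8 HIF targets (7 genes). Among the 9 members that fell it was 77.8% (7 genes), and the windows of Tpi1 and Pkm2, entered in RefSeq as Pkm, had neither core. These are matches of 5 letters, and no binding was measured here.

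Scores of the glycolytic genes were lower in cKO B cells along most of the pathway. Of the 38 members, 32 reached a score of 0.005 in a library and so entered the test of 9727 genes. The test was limma on log2(score + 0.0001), and p-values were adjusted by Benjamini-Hochberg over all 9727. At an adjusted p under 0.05, 9 members fell (28.1% of 32), where 1.25% of all tested genes did, and 0 members rose, where 0.812% of all genes did. At an unadjusted p under 0.05 the limma counts were 19 members lower, where 11.5% of all tested genes were, and 0 higher, where 10.8% were. The 9 were Pfkl, Aldoc, Tpi1, Gapdh, Eno1, Pkm2, Ldha, Slc16a3 and Ankrd37. The log2 fold change was negative for 26 of the 32 members and 51.8% of all genes, with a median of -0.32 for the members and -0.01 for all genes, whose 5th and 95th percentiles were -0.45 and 0.48. In 28 of the 38 members both cKO scores were under the lower control score, in 5 both were over the higher one, and in 5 the groups overlapped. Among the 32 tested members these counts were 23 below and 5 above, and among all tested genes 30.1% lay below and 28.1% above. By the ratio of geometric means 5 of the 32 tested members were below 0.5 of control (Slc16a3, Ankrd37, Aldoc, Bnip3 and Tpi1), where 0.864% of all genes were. All 5 also stand in the study's own list of genes under 0.5 of control, made from these same samples. Members were chosen with earlier results known, so this excess is no independent evidence. Slc16a3 and Bnip3 passed the filter through their control scores alone and Pfkfb4 through its cKO scores alone. The calls on the 9 members were not kept when cKO 1 or cKO 2 was left out, although all 9 log2 fold changes stayed negative. Such fits have fewer samples and 1 cKO sample only, and the cause of the loss was not tested. Of all tested genes 0 were called in either direction in these fits, while at an unadjusted p under 0.05 there were 519 lower and 428 higher genes without cKO 1, and 982 and 767 without cKO 2. Again with all samples, but without a mean-variance trend in the fit 2 of them, Aldoc and Slc16a3, were called, where 0.226% of all genes were called lower and 0.113% higher. With the replicate number as a block 11 members were called lower and 0 higher, where 1.85% of all genes were lower and 1.82% higher. Without a filter on low scores, limma called 0 members and 0 genes lower, and 7.13% of 21582 genes were lower at an unadjusted p under 0.05, the 9 members among them.

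**Figure D1:**
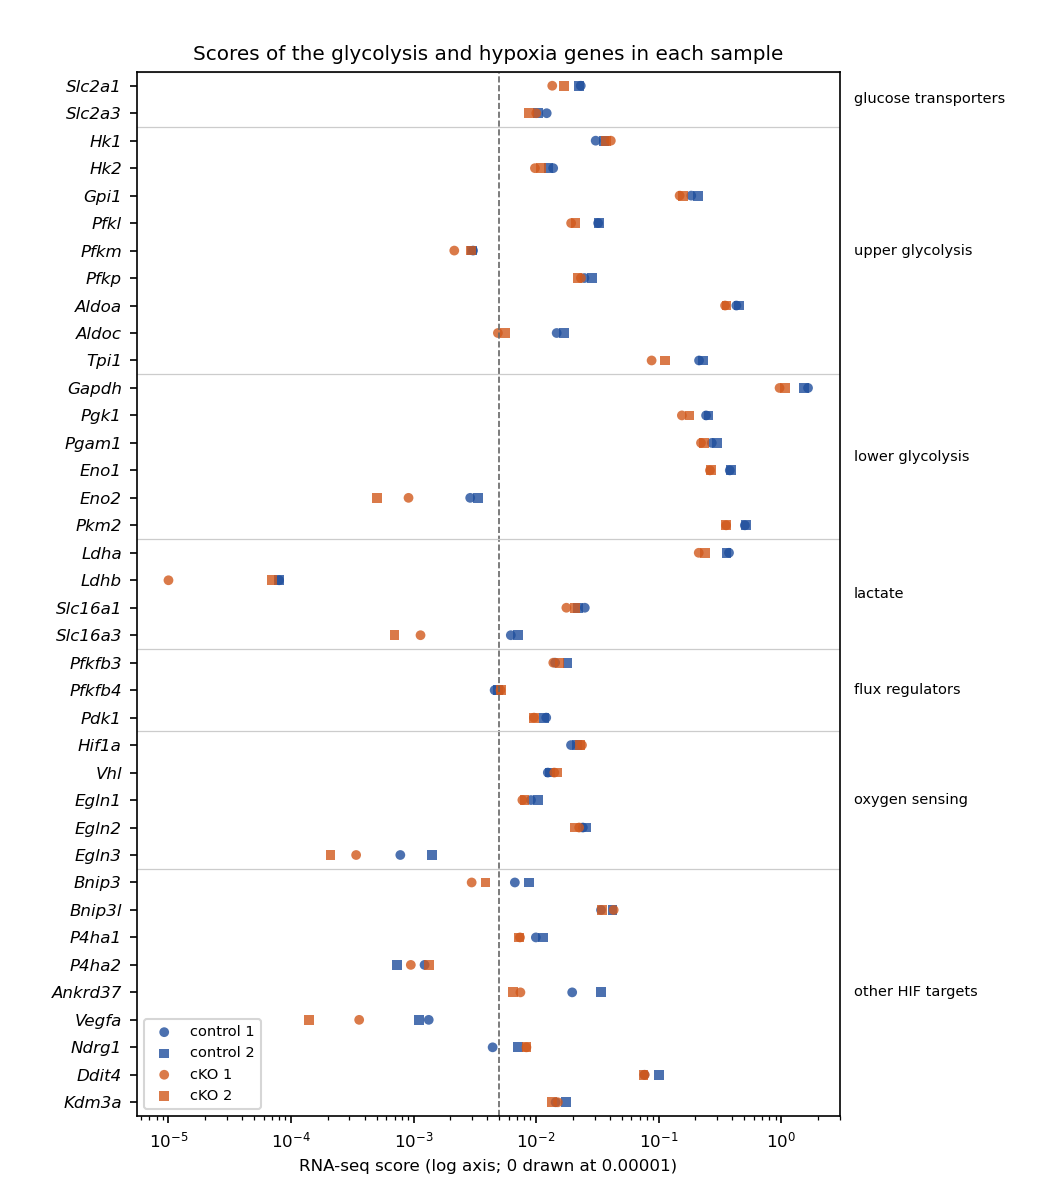
RNA-seq score of each of the 38 listed members (log axis, no unit stated, 0 drawn at 0.00001) in control 1 and 2 (blue) and cKO 1 and 2 (orange), ordered by role, with a dashed line at the filter of 0.005. Gapdh has the highest scores in all 4 libraries and Ldhb the lowest, and the orange points of the lower glycolytic genes all lie to the left of the blue ones.

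Glucose enters B cells through the facilitative transporters encoded by Slc2a1 (GLUT1) and Slc2a3 (GLUT3). Slc2a1 had scores of 0.0232 and 0.0225 in control 1 and 2 and 0.0135 and 0.0169 in cKO 1 and 2. Both scores of the cKO group were under those of control, but the log2 fold change of -0.59 (SE 0.125) did not pass the limma test (adjusted p = 0.0883). Slc2a3 was scored 0.0122 and 0.0104 in control and 0.0100 and 0.00876 in cKO B cells, again without overlap and without a call (log2 fold change -0.26, adjusted p = 0.297). Neither transporter was called (1 of the 2 was lower at an unadjusted p under 0.05, as were 11.5% of all genes), and their log2 fold changes lay on the same side of 0.

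In the upper part of glycolysis, from glucose to the triose phosphates, 3 of 8 tested genes fell, where 1.25% of all tested genes did. The median log2 fold change of the 8 was -0.35. Of the hexokinases, which trap glucose as glucose-6-phosphate, Hk2 was scored 0.0138 and 0.0126 in control and 0.00979 and 0.0110 in cKO B cells. Hk1 was scored 0.0307 and 0.0358 in control and 0.0407 and 0.0372 in cKO B cells and was the only one of the 17 glycolytic enzymes with both cKO scores above both control scores. Neither Hk2 (-0.34, adjusted p = 0.16) nor Hk1 (0.23, adjusted p = 0.275) passed the test, and the ratio of Hk1 to Hk2 was 2.223 and 2.834 in control and 4.161 and 3.389 in cKO B cells. Gpi1, which isomerises glucose-6-phosphate, was scored 0.185 and 0.209 in control and 0.148 and 0.158 in cKO B cells, with no overlap and no call (-0.36, adjusted p = 0.123).

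Of the 3 phosphofructokinase genes, whose products form the committed step, 1 fell, where 1.25% of all tested genes did. Pfkl (chr10:77449692-77472828 of NCBIM37, minus strand) had scores of 0.0321 and 0.0328 in control 1 and 2 and 0.0193 and 0.0210 in cKO 1 and 2. It fell with a log2 fold change of -0.68 (SE 0.088, limma adjusted p = 0.0338), and the gap between the groups was larger than the gap within either. Pfkp was scored 0.0248 and 0.0284 in control and 0.0232 and 0.0218 in cKO B cells (-0.24, adjusted p = 0.241), a difference that missed the threshold. The muscle form Pfkm stayed under the filter, at 0.00306 and 0.00302 in control and 0.00215 and 0.00296 in cKO B cells. The score of Pfkl was 1.294 and 1.153 times that of Pfkp in control and 0.8324 and 0.9655 times in cKO B cells, so the order of the 2 genes was opposite in the groups. The difference between the 2 genes was not tested.

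Aldolase splits fructose bisphosphate into the triose phosphates. Aldoc (chr11:78136470-78141283 of NCBIM37, plus strand), the form best known from brain, had scores of 0.0147 and 0.0170 in control 1 and 2 and 0.00488 and 0.00555 in cKO 1 and 2. The cKO level was 32.9% of control, and Aldoc had the lowest adjusted p of the members (log2 fold change -1.59, SE 0.129, limma adjusted p = 0.0215). The main form, Aldoa, scored 0.431 and 0.453 in control and 0.349 and 0.358 in cKO B cells and was not called (-0.32, adjusted p = 0.101). Aldoc thus made a small share of aldolase transcript in each library: its score was 0.0342 and 0.0375 times that of Aldoa in control and 0.0140 and 0.0155 times in cKO B cells. Tpi1 (chr6:124760604-124764314 of NCBIM37, minus strand), which interconverts the triose phosphates, was scored 0.214 and 0.229 in control and 0.0877 and 0.113 in cKO B cells. It fell to 44.9% of control (log2 fold change -1.15, SE 0.132, adjusted p = 0.0294), the largest fall among the enzyme members with a score above 0.05.

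**Figure D2:**
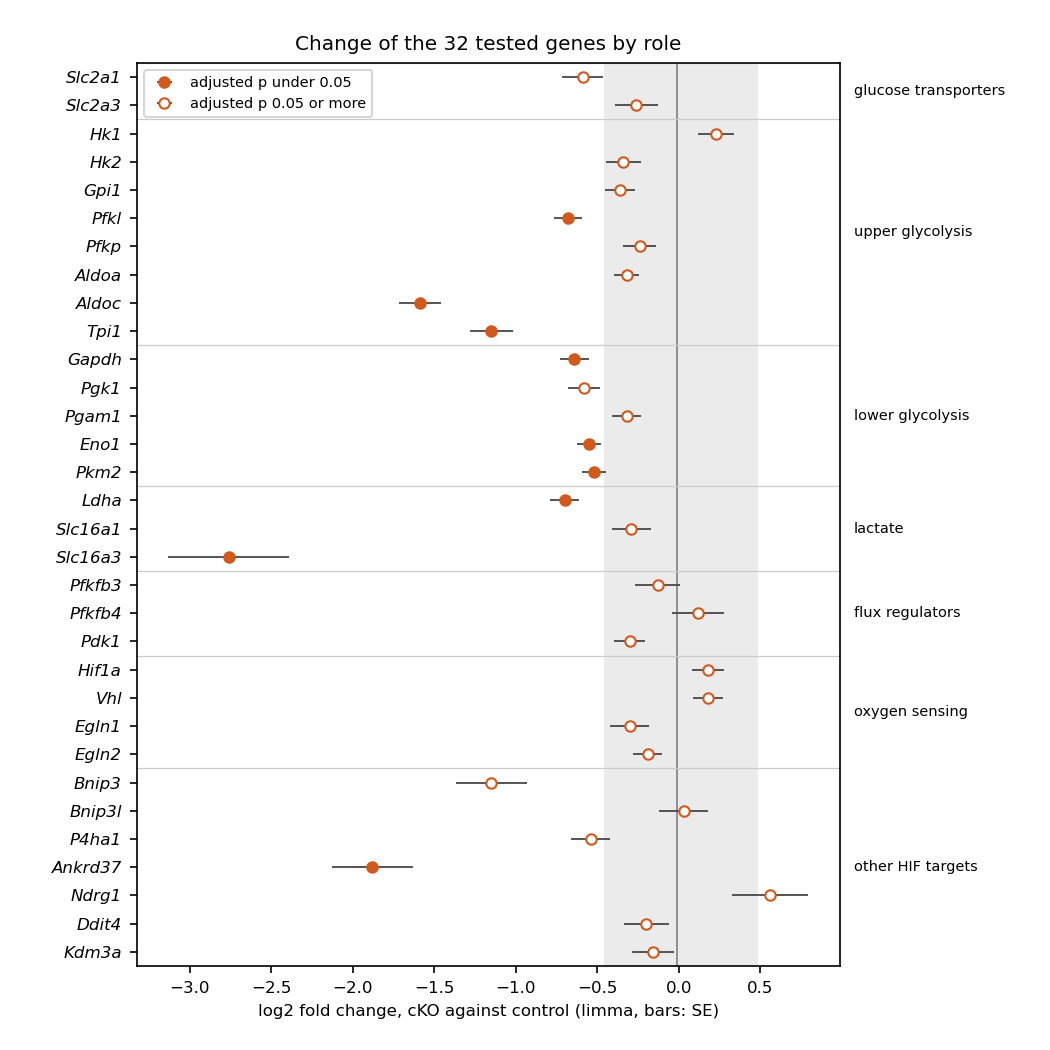
Log2 fold change of cKO against control (limma, bars are the SE) for the 32 tested members by role, filled where the adjusted p is under 0.05; the grey band spans the 5th to 95th percentile of all 9727 tested genes (-0.45 to 0.48). All 9 filled points lie to the left of the band, and the points of flux regulators and oxygen sensing lie within it.

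In the lower part of glycolysis, which yields ATP and pyruvate, 3 of 5 tested genes fell, where 1.25% of all tested genes did. The median log2 fold change of the 5 was -0.55. Gapdh (chr6:125111871-125116485 of NCBIM37, minus strand), glyceraldehyde-3-phosphate dehydrogenase, often used as a reference gene, had scores of 1.66 and 1.53 in control 1 and 2 and 0.971 and 1.08 in cKO 1 and 2. These were the highest scores of any member in each library, and the cKO level was 64.2% of control (log2 fold change -0.64, SE 0.087, limma adjusted p = 0.0362). Against Cd79b, a B cell receptor subunit that was not called, the Gapdh score was 2.932 and 2.217 times as high in control and 1.23 and 1.486 times in cKO B cells. Cd79b itself was scored 0.565 and 0.690 in control and 0.789 and 0.724 in cKO B cells (0.28, limma adjusted p = 0.234). Its higher cKO scores thus also lower this ratio. Pgk1, phosphoglycerate kinase, was scored 0.244 and 0.255 in control and 0.155 and 0.179 in cKO B cells and lay just outside the threshold (-0.58, adjusted p = 0.0504). Under the replicate block it had an adjusted p of 0.0268, and of 0.047 with the numbers crossed. Pgam1, phosphoglycerate mutase, was scored 0.272 and 0.299 in control and 0.222 and 0.236 in cKO B cells without a call (-0.32, adjusted p = 0.128).

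Eno1 (chr4:149610830-149622988 of NCBIM37, plus strand), the main enolase gene, had scores of 0.381 and 0.391 in control 1 and 2 and 0.262 and 0.266 in cKO 1 and 2. The replicates lay close together in both groups and Eno1 fell (log2 fold change -0.55, SE 0.073, limma adjusted p = 0.0345). The neuronal form Eno2 was under the filter in all libraries, at 0.00290 and 0.00336 in control and 0.000910 and 0.000500 in cKO B cells, or about 244 and 290 reads against 86 and 41 if the score is read as above. Its 4 scores did not overlap between the groups (unadjusted p = 0.00316 and adjusted p = 0.219 in the limma fit without a filter, log2 fold change -2.05). Pkm2 (chr9:59504383-59527182 of NCBIM37, plus strand), whose product pyruvate kinase makes pyruvate and ATP, was scored 0.506 and 0.519 in control and 0.356 and 0.357 in cKO B cells. It had the smallest fall of the 9 (log2 fold change -0.52, SE 0.072, adjusted p = 0.0362), and after quantile normalization its adjusted p was 0.0577. The splice forms of this gene cannot be told apart in a score per gene.

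At the fate of pyruvate, 2 of 3 tested genes fell, where 1.25% of all tested genes did. Slc16a3, 1 of these 2, passed the filter through its control scores alone, so this count is not free of the filter. Ldha (chr7:54096845-54110997 of NCBIM37, plus strand), the lactate dehydrogenase subunit that favours lactate, had scores of 0.375 and 0.357 in control 1 and 2 and 0.213 and 0.237 in cKO 1 and 2. Its log2 fold change was -0.70 (SE 0.088, limma adjusted p = 0.0331), with no overlap between the groups. Ldhb, the other subunit, was nearly undetected, with a score of 0.00008 in both control libraries, of 0.00007 in cKO 2 and of 0 in cKO 1. Slc16a3 (chr11:120809794-120822182 of NCBIM37, plus strand), the lactate exporter MCT4, was scored 0.00622 and 0.00712 in control and 0.00114 and 0.000700 in cKO B cells, or about 591 and 695 reads against 121 and 65. This was the largest fall among the tested members, to 13.4% of control (log2 fold change -2.76, SE 0.37, adjusted p = 0.0347). Slc16a1, the more widely expressed transporter MCT1, was scored 0.0250 and 0.0218 in control and 0.0177 and 0.0207 in cKO B cells and was not called (-0.29, adjusted p = 0.235). The ratio of Slc16a3 to Slc16a1 was 0.249 and 0.3262 in control and 0.0645 and 0.0338 in cKO B cells.

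None of the 3 tested genes that set the flux was called by limma (1 was lower at an unadjusted p under 0.05, as were 11.5% of all genes). Pfkfb3, a bifunctional enzyme that makes the activator of phosphofructokinase, was scored 0.0143 and 0.0180 in control and 0.0138 and 0.0156 in cKO B cells, and the groups overlapped (-0.13, adjusted p = 0.598). Its relative Pfkfb4 was scored 0.00459 and 0.00486 in control and 0.00512 and 0.00517 in cKO B cells (0.12, adjusted p = 0.677). Pdk1 encodes the kinase that keeps pyruvate out of the mitochondrial dehydrogenase complex. Its scores were 0.0121 and 0.0117 in control and 0.00961 and 0.00967 in cKO B cells, with a small gap in the direction of the enzymes (-0.30, adjusted p = 0.161). The score of Pdk1 relative to Ldha was 0.0322 and 0.0327 in control and 0.0452 and 0.0407 in cKO B cells.

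The oxygen-sensing genes showed no common direction, with a median log2 fold change of -0.01 over 4 tested genes, 0 calls by limma and 1 gene lower at an unadjusted p under 0.05, where 11.5% of all genes were. Hif1a, the inducible α subunit, was scored 0.0193 and 0.0216 in control and 0.0237 and 0.0227 in cKO B cells, and Vhl, which targets it for destruction, 0.0125 and 0.0131 in control and 0.0141 and 0.0149 in cKO B cells. In both genes the cKO scores lay above the control scores, by a log2 fold change of 0.18 (adjusted p = 0.32) and 0.18 (adjusted p = 0.3), and neither was called. The prolyl hydroxylases Egln1 (0.00909 and 0.0104 in control, 0.00773 and 0.00804 in cKO) and Egln2 (0.0241 and 0.0255 in control, 0.0225 and 0.0209 in cKO) had lower cKO scores, with log2 fold changes of -0.30 and -0.19 and no call (adjusted p = 0.219 and 0.274). The third hydroxylase, Egln3, itself a HIF target, was under the filter at 0.000780 and 0.00141 in control and 0.000340 and 0.000210 in cKO B cells, or about 37 and 69 reads against 18 and 10. HIF1α is regulated mainly as a protein, which RNA-seq does not measure.

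Of the 9 other HIF targets, 7 were tested and 1 fell, a share of 14.3%, where 1.25% of all tested genes fell. Ankrd37 (chr8:47082256-47085221 of NCBIM37, minus strand), an ankyrin repeat gene known as a HIF target, had scores of 0.0197 and 0.0337 in control 1 and 2 and 0.00745 and 0.00648 in cKO 1 and 2. Its control scores differed from each other by more than the cKO scores did, but both lay above both cKO scores, and the cKO level was 0.27 of control (log2 fold change -1.88, SE 0.248, limma adjusted p = 0.0345). Bnip3, a mitophagy receptor, was scored 0.00671 and 0.00876 in control and 0.00298 and 0.00386 in cKO B cells. At 44.2% of control it did not pass the test (-1.15, SE 0.217, adjusted p = 0.0696), and its adjusted p was 0.0218 with the replicate block and 0.0679 with the numbers crossed. Its paralog Bnip3l overlapped between the groups, at 0.0339 and 0.0421 in control and 0.0430 and 0.0345 in cKO B cells (0.03, adjusted p = 0.932). The ratio of Bnip3 to Bnip3l was 0.198 and 0.208 in control and 0.0693 and 0.112 in cKO B cells.

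The remaining targets were not called. P4ha1, a collagen prolyl hydroxylase subunit, was scored 0.00996 and 0.0114 in control and 0.00739 and 0.00723 in cKO B cells (-0.54, adjusted p = 0.0933). Ndrg1 was the one HIF target with both cKO scores above both control scores, at 0.00442 and 0.00713 in control and 0.00834 and 0.00834 in cKO B cells (0.56, adjusted p = 0.231). Without control 2 Ndrg1 passed the test, with a log2 fold change of 0.90 (adjusted p = 0.0244). Ddit4, an inhibitor of mTORC1 signalling, was scored 0.0765 and 0.100 in control and 0.0770 and 0.0754 in cKO B cells, and Kdm3a, a histone demethylase, 0.0144 and 0.0176 in control and 0.0151 and 0.0135 in cKO B cells. Both overlapped between the groups (adjusted p = 0.426 and 0.484). Vegfa, the angiogenic growth factor, was under the filter at 0.00133 and 0.00110 in control and 0.000360 and 0.000140 in cKO B cells, about 102 and 87 reads against 31 and 11, without overlap (unadjusted p = 0.0081 and adjusted p = 0.241 in limma without a filter). P4ha2 was under it too and overlapped, at 0.00123 and 0.000730 in control and 0.000950 and 0.00134 in cKO B cells.

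The glycolytic enzymes and the HIF targets were then set side by side. Of 14 tested enzymes 7 fell (50.0%), with 13 negative and 1 positive log2 fold changes and a median of -0.54. Of 7 tested HIF targets 1 fell (14.3%), with 5 negative and 2 positive values and a median of -0.20. Of all tested genes 1.25% fell and 51.8% were negative. The other 11 members, which are the transporters, the flux regulators and 4 oxygen-sensing genes, were placed in neither group. Among them are Slc16a3 (-2.76), Slc2a1 (-0.59) and Pdk1 (-0.30). Of these 11 members 1 fell, with 8 negative and 3 positive values and a median of -0.26. The 1 was Slc16a3, which passed the filter through its control scores alone. The contrast depends on this assignment. Without the filter the medians were -0.52 over all 17 enzymes and -0.37 over all 10 HIF targets, which then include Vegfa (-1.98) and Egln3 (-1.64). The summed score of all 17 listed enzymes was 4.386 and 4.374 in control and 2.864 and 3.078 in cKO B cells, which is 0.702 and 0.686% of all scores in control and 0.474 and 0.496% in cKO. The control libraries were almost equal here and both cKO libraries lay well below them, also without Gapdh (2.729 and 2.845 against 1.893 and 2.003). The sum over the 10 listed HIF targets was 0.169 and 0.2244 in control and 0.1629 and 0.151 in cKO B cells. The groups did not overlap in that sum either, but control 1 lay much nearer to the cKO libraries than to control 2. Ddit4 and Bnip3l had the highest scores of the 10 in each library, so the sum reflects them most. Each of them overlapped between the groups. An exact permutation test of 2 against 2 samples cannot give a two-sided p below 0.333, so none is given for these sums, and the difference between enzymes and HIF targets was not tested.

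The 2 control libraries differed from each other in the HIF targets. All 7 tested HIF targets had a higher score in control 2 than in control 1, with a median difference of 0.38 on the log2 scale, while 51.7% of all tested genes did, with a median of 0.01. For the enzymes 11 of 14 were higher in control 2, by a median of 0.07. Between the cKO libraries 1 of 7 HIF targets and 12 of 14 enzymes were higher in cKO 2, with medians of -0.03 and 0.11. The spread of the HIF targets between the control libraries was thus larger than their median difference between the groups, and the enzymes showed the opposite order. Without control 1 the median log2 fold change of the HIF targets was -0.40, and without control 2 it was -0.02, where that of the enzymes was -0.55 and -0.52.

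**Figure D3:**
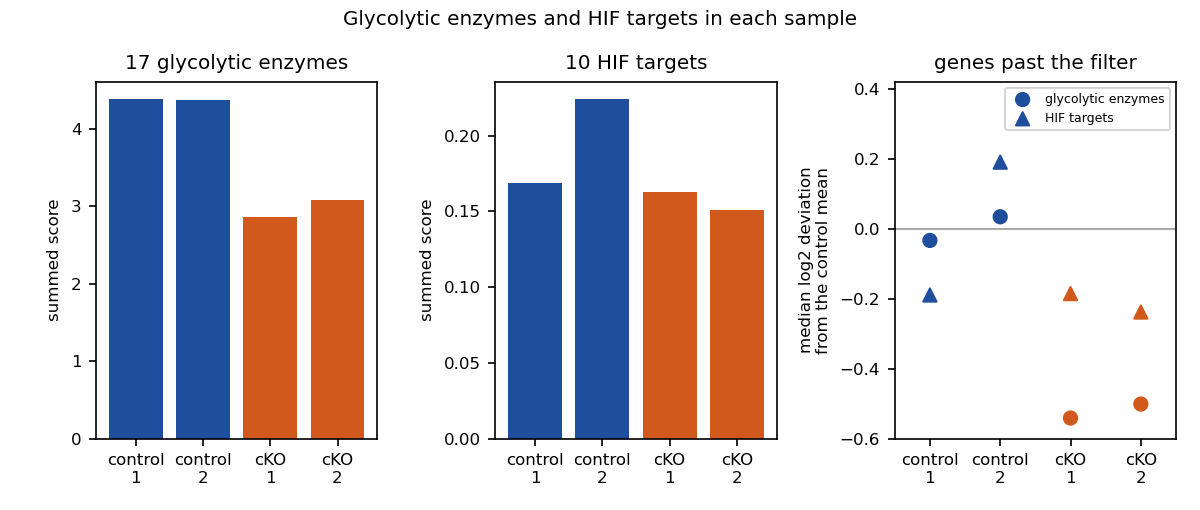
Left and middle, summed score (no unit stated) of the 17 listed glycolytic enzymes and the 10 listed HIF targets in each of the 4 libraries; right, median log2 deviation of the tested genes of each group (14 enzymes as circles, 7 HIF targets as triangles) from their control mean. The enzymes of both cKO libraries lie at -0.54 and -0.50, and the HIF targets of both (-0.19 and -0.24) lie close to those of control 1 (-0.19).

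Many glycolytic genes have processed pseudogenes, to which short reads may also map, and whether reads with several hits entered the score, after mapping by TopHat with default settings, is not given in the sources used here. The share of 38-base words of each member's longest transcript that occur elsewhere in the NCBIM37 genome was therefore counted, 38 bases being the read length. It was 100.0% for Gapdh, 95.3% for Pgam1, 93.6% for Pgk1, 87.2% for Eno1, 59.7% for Pkm2, 51.7% for Ldha, 41.9% for Gpi1, 33.2% for Tpi1 and 30.8% for Aldoa, so the scores of these genes are uncertain. The share was also high for Bnip3 (70.7%) and Bnip3l (47.8%). Of the 9 genes that fell, Aldoc and Slc16a3 shared no word, and Ankrd37 (0.337%) and Pfkl (1.87%) few. Slc16a3 passed the filter through its control scores alone. Among the 20 tested members with under 5% of shared words 4 fell, with a median log2 fold change of -0.25, and among the 12 others 5 fell, with a median of -0.54. For the enzymes the counts were 2 of 5 below that limit (median -0.34) and 5 of 9 at or above it (median -0.55). Of all tested genes 1.25% fell. The summed score of the enzymes below the limit was 0.122 and 0.133 in control and 0.101 and 0.09997 in cKO B cells, also without overlap. No member had the same 4 scores as another gene. The part of shared sequence in the scores was not tested.

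**Figure D4:**
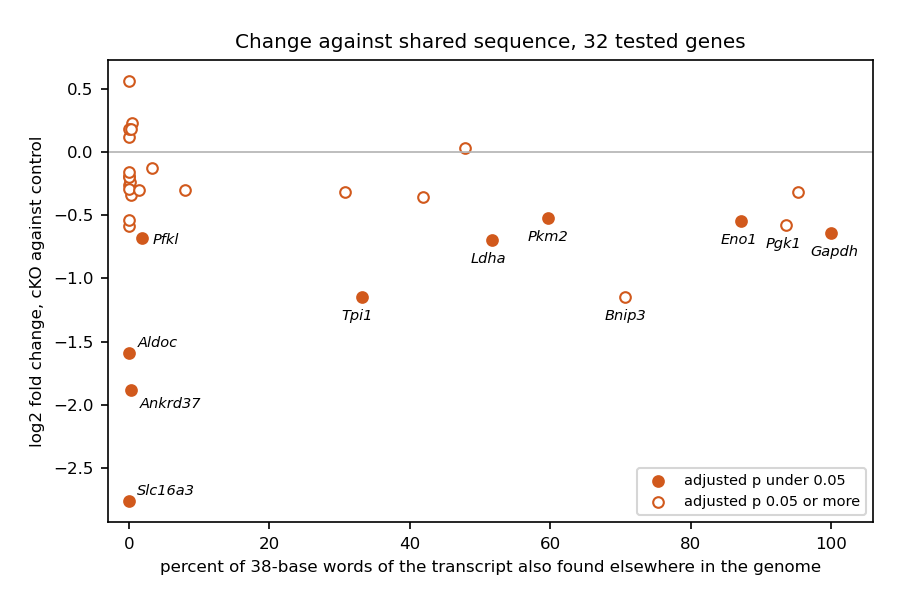
Log2 fold change of cKO against control for the 32 tested members against the percentage of 38-base words of the longest transcript also found elsewhere in the genome, filled where the limma adjusted p is under 0.05. The 3 lowest points, Slc16a3, Ankrd37 and Aldoc, are at the left edge, with 0 to 0.337% of shared words, and the other filled points spread from 1.87 to 100.0%.

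Other genes of the same metabolism, outside the members, were counted by list. Of 28 genes for other glycolytic isoforms and shunts, 9 were tested and 0 were called by limma (at an unadjusted p under 0.05, 1 lower and 1 higher, where 11.5% and 10.8% of all genes were), with a median log2 fold change of 0.04. The muscle enolase Eno3, named after its values were seen, went the other way from Eno1 in this list. It was scored 0.00729 and 0.00856 in control and 0.0154 and 0.0129 in cKO B cells (log2 fold change 0.83, limma adjusted p = 0.0514). With the replicate block in the fit its adjusted p was 0.0222, but the replicate numbers are not stated to pair the samples. In the pentose phosphate pathway 1 of 9 tested genes fell, where 1.25% of all tested genes did. It was the transketolase gene Tkt, at 0.167 and 0.156 in control and 0.0970 and 0.110 in cKO B cells (log2 fold change -0.64, SE 0.096, adjusted p = 0.0411). The median of the 9 was -0.06. Of 26 tested genes of pyruvate entry and the TCA cycle 0 were called (4 lower at an unadjusted p under 0.05, where 11.5% of all genes were) and 21 had a negative log2 fold change, with a median of -0.14. The difference between these lists and the enzyme members was not tested.

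Among 19 tested genes of 32 further HIF targets, 2 fell, where 1.25% of all tested genes did, and the median log2 fold change was -0.09. Mif, a cytokine, was scored 0.265 and 0.239 in control and 0.151 and 0.163 in cKO B cells (log2 fold change -0.68, SE 0.092, limma adjusted p = 0.0349), and Bhlhe40, a transcriptional repressor, 0.0671 and 0.0640 in control and 0.0405 and 0.0450 in cKO B cells (-0.62, adjusted p = 0.0411). Against these, the heme oxygenase gene Hmox1 and the chemokine receptor gene Cxcr4, named after their values were seen, had higher cKO scores. Their log2 fold changes were 1.70 (limma adjusted p = 0.086) and 1.05 (adjusted p = 0.076), without a call. With the replicate block in the fit the adjusted p was 0.00105 and 0.0206, but the replicate numbers are not stated to pair the samples. The myeloid marker Lyz2, scored 0.0205 and 0.0112 in control and 0.0485 and 0.0329 in cKO B cells, was also higher in both cKO libraries without a call (1.39, adjusted p = 0.0961), as Hmox1 was (0.00694 and 0.00345 against 0.0202 and 0.0130). The median over the 5 tested of the 15 myeloid markers was 0.00, with Itgam at 0.00, Mpeg1 at -0.21, Ly6c1 at -0.07 and Cd68 at 0.75. Under the filter, 3 markers had both cKO scores above both control scores. These were Csf1r (0.00261 and 0.00183 against 0.00345 and 0.00305), Cd14 (0.00281 and 0.00173 against 0.00484 and 0.00433) and Emr1 (0.00222 and 0.00269 against 0.00301 and 0.00357). Itgax, S100a8, Fcgr1 and Csf3r overlapped, and S100a9, Ngp and Mpo were at or near 0. The part of myeloid cells in the higher Hmox1 scores was not tested. In the list of HIF subunits and oxygen-sensing genes 1 of 9 tested genes fell, where 1.25% of all tested genes did. It was Siah2, a ubiquitin ligase of the prolyl hydroxylases, at 0.0935 and 0.0739 in control and 0.0356 and 0.0448 in cKO B cells (-1.06, SE 0.159, adjusted p = 0.042). Of 13 tested regulators of glycolytic genes 0 were called (at an unadjusted p under 0.05, 1 lower and 1 higher, where 11.5% and 10.8% of all genes were), and Myc was scored 0.0572 and 0.0604 in control and 0.0577 and 0.0607 in cKO B cells (0.01, adjusted p = 0.957).

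Proliferation and differentiation genes stood beside the enzymes as follows. All 24 proliferation genes had a negative log2 fold change, with a median of -0.27, 0 called by limma and 12 lower at an unadjusted p under 0.05, where 11.5% of all genes were, and their summed score was 2.126 and 1.989 in control and 1.588 and 1.835 in cKO B cells. Of 10 B cell markers Cd79a and Fcer2a fell (both -0.78, limma adjusted p = 0.0294 and 0.0428), where 1.25% of all tested genes did. Cd79a is the gene whose promoter drives Cre. Of 9 tested plasma cell markers Prdm1 (-2.82, adjusted p = 0.0429) and Derl3 (-1.88, adjusted p = 0.0485) fell. Igj (-0.86, limma adjusted p = 0.13) and Sec11c (-0.39, adjusted p = 0.073) were also lower in both cKO libraries, without a call. The log2 fold change of the other 5 of the 9 was positive, among them Sdc1 (CD138) at 0.77 (adjusted p = 0.116), Irf4 at 0.15 and Xbp1 at 0.11. By flow cytometry, which reads surface protein, the study found less CD138 on cKO than on control B cells cultured with LPS. The list median was 0.06, and summed scores of the plasma cell list were 0.829 and 0.732 in control and 0.7535 and 0.682 in cKO B cells. The part of cell cycle or differentiation state in the enzyme scores was not tested.

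**Figure D5:**
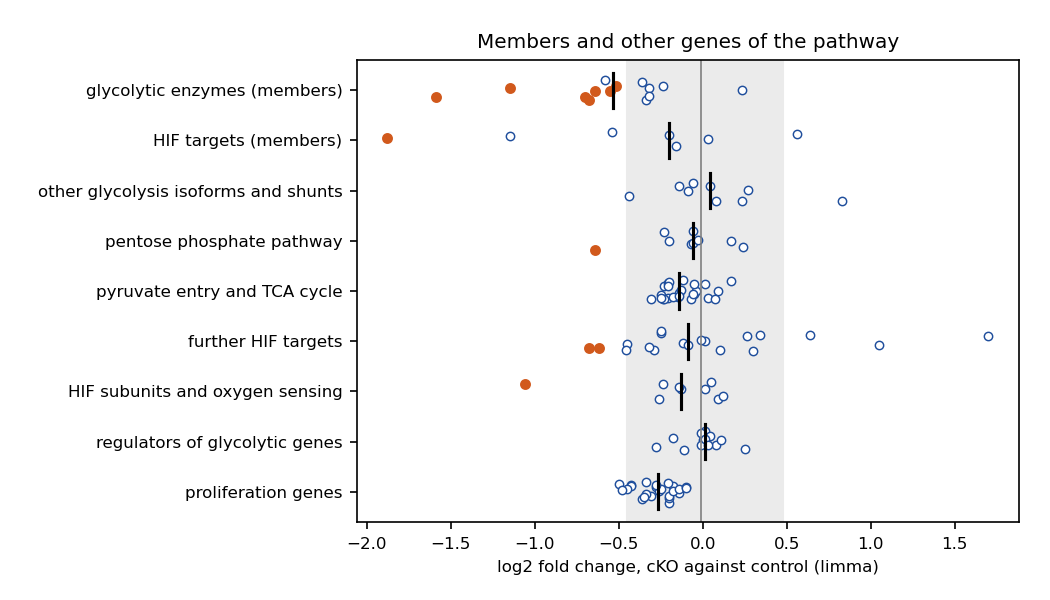
Log2 fold change of cKO against control (limma) of the tested genes in the 2 member groups and in 7 lists of related genes, orange where the adjusted p is under 0.05, with a black bar at each median and a grey band from the 5th to the 95th percentile of all tested genes. The band describes single genes, not medians. The median is -0.54 for the glycolytic enzymes, -0.27 for the proliferation genes and between -0.20 and 0.04 for the others.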

How the data were processed

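Poly(A) RNA of LPS-stimulated splenic B cells was sequenced in 2 control and 2 cKO samples, grouped by their labels. Per the study's methods, reads of 38 bases were mapped to mm9 with TopHat at its default settings, a minimum base quality was applied and rRNA and tRNA reads were removed. The submitters' processing notes also name CASAVA 1.8, Bowtie, TopHat2 2.0, SAMtools and bedtools. The authors deposited a score for each gene and sample, with no unit stated and the step from reads to score not given in the sources used here, so no count test was used and depth can only be inferred.

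Genes that reached a score of 0.005 in any sample entered a limma fit (version 3.58.1, under R 4.3.3). Values were log2(score + 0.0001), and lmFit was followed by eBayes with a mean-variance trend, two-sided, cKO against control over all 4 samples, with Benjamini-Hochberg adjustment and a threshold of 0.05. A fold change on this scale understates that of low genes. The fit was checked on simulated data. Alternatives were a pseudocount of 0.001, a filter above 0.05, no filter, no variance trend, equal medians, quantile normalization, the replicate block and leaving out each sample. The crossed block and the limit of 5% of shared 38-base words were added after seeing the data. Ratios are of geometric means. Tables were made with Python 3.11.15, pandas 2.3.3 and numpy 2.4.6. All members were named, and from other lists the called genes (at most 4 a list). Cell type markers without a call were also named where a result touched them. Myc, Eno3, Hmox1 and Cxcr4 were named outside these rules. Members and lists were chosen with earlier results of these data known, and some members also stand in a gene list the study made from these samples, so no test of a list is given. Gene positions and transcripts are from GENCODE on NCBIM37 (mm9), promoters from RefSeq on GRCm38.p6, and the builds were not mixed. Same-numbered samples are not stated to share mice or cultures.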

Additional observations from a re-analysis of the deposited data

How the results depend on the processing

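The counts depended on how the spread was estimated, and the directions less so. Of 362 values of the 32 tested members under the alternatives, 315 kept their direction and their side of the threshold, 35 lost the call, 9 gained one and 3 changed sign, none of them called: Pfkfb3 ranged from -0.29 to 0.04 when a sample was left out, positive without control 2, and Bnip3l from -0.13 (without control 1 and without cKO 1) to 0.19. The 122 genes lower in cKO became 0 without a filter (1538 at an unadjusted p under 0.05), 22 without the variance trend and 0 to 391 when a sample was left out. The 79 genes higher in cKO became 35 with the filter above 0.05, 0 without a filter (1665 at an unadjusted p under 0.05), 11 without the variance trend and 0 to 439 when a sample was left out. The 9 members lower in cKO became 0 without a filter, 2 without the variance trend, 0 to 11 when a sample was left out and 4 among members with under 5% of shared words, and the 0 members higher in cKO became 0 to 1. With 1 cKO sample left, the lone sample was assumed to vary like the control group. The median log2 fold change of the glycolytic enzymes, -0.54, was -0.41 after quantile normalization, -0.34 among enzymes with under 5% of shared words and -0.55 to -0.50 when a sample was left out, and that of the HIF targets, -0.20, was -0.37 without a filter (all 10 genes) and -0.40 to -0.02 when a sample was left out. Apart from fewer samples, more genes or fewer members entering a count, the cause was not tested.

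With the replicate block 180 genes were lower, 177 higher and 11 members lower, Pgk1 and Bnip3 being the members gained, and no call on a member was lost. Same-numbered samples correlated at -0.145 in their deviations from the group means over 9727 genes (Spearman -0.291). With 2 samples in each group this cannot decide whether the numbers pair the samples. With the numbers crossed, 230 genes were lower, 212 higher and 10 members lower. Depth is only inferred, so no counting interval is given for the low members.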
